A study of Mus musculus with 16 samples.

Results

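The fibroblast growth factor (FGF) ligands described here are 10 genes, Fgf3, Fgf4, Fgf5, Fgf8, Fgf9, Fgf10, Fgf15, Fgf17, Fgf18 and Fgf20, out of 22232 protein-coding genes in the GENCODE M1 annotation of the mouse genome (mm9). They are a selection from the secreted FGF ligands, listed by name, which was made with earlier results of these data known. A further 8 ligands, of which 3 had promoter H3K27me3 in each NPC list, are counted with the other pathway genes at the end. For each gene, the peaks of 10 deposited lists were counted at its promoter and over its body. A peak counted as a promoter peak when its centre was no more than 2500 bp from the start of any protein-coding transcript of the gene, and the covered length is the sum of the widths of these peaks in bp.

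Chromatin immunoprecipitation and sequencing had been carried out on the mouse embryonic stem (ES) cell line 46C, which carries a Sox1-GFP reporter of neural fate, and on neural precursor cells (NPC) made from it. Lists for 2 histone marks, H2AK119ub1 and H3K27me3, were at hand for wild type and PCGF5-depleted cells at both stages, and lists for Flag-PCGF5 for ES and NPC. ES were grown on inactivated embryo fibroblasts with LIF and the 2i inhibitors, of which PD0325901 blocks MEK, a kinase downstream of FGF receptors. NPC were taken at day 6 of differentiation in suspension in medium without LIF or 2i. The labels give the depleted cells as shPCGF5, a hairpin against Pcgf5, while the study also describes a Pcgf5 knockout line, and the lists do not show how much PCGF5 was left. The Flag libraries are labelled wild type and came from cells whose own Pcgf5 gene carried a Flag tag. Each of these 10 groups was 1 library. No difference below therefore has a replicate error or a test, and each is a comparison of 2 libraries, not of conditions. The study reports that loss of PCGF5 impaired neural differentiation. Reporter-positive cells were fewer after knockdown of PCGF5 in the Sox1-GFP line. Pluripotency factors stayed high in the Pcgf5 knockout line, which was differentiated in N2B27 medium. Wild type and depleted NPC may therefore differ in cell state as well as in PCGF5. The part of cell state in the NPC differences below was not tested.

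FGF ligands are secreted proteins that bind receptor tyrosine kinases at the cell surface and signal through the ERK pathway. FGF4 is the main autocrine FGF of ES cells and helps them to leave the naive state, and FGF5 marks the epiblast-like state that follows. FGF8, FGF17 and FGF18 form a subfamily that patterns the midbrain and hindbrain, FGF9 and FGF20 form another, FGF3 and FGF10 act in ear and limb development, and FGF15 is made in embryonic neural tissue and later in the gut as a hormone. H2AK119ub1, monoubiquitinated histone H2A, is placed by Polycomb repressive complex 1 (PRC1), of which PCGF5 is a subunit in 1 variant form. H3K27me3, trimethylated histone H3, is placed by Polycomb repressive complex 2. Both marks are typical of developmental genes that are silent or lowly transcribed, and promoters dense in CpG are their usual place.

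Fgf3, Fgf4 and Fgf15 lie side by side on chromosome 7, all on the plus strand. The first start site of Fgf3 is 23.3 kb before that of Fgf4, and the start of Fgf4 is 35.1 kb before that of Fgf15. These neighbours had 3 different H3K27me3 patterns, and Fgf5 had the highest-scoring Flag-PCGF5 peak of the ligands, over its start site. The 200 bases before the first protein-coding start of these 4 genes are therefore printed here, 5′ to 3′ from the NCBIM37 assembly behind mm9, with each CpG in capitals.
Fgf3 (chr7:152023788-152023987, plus strand): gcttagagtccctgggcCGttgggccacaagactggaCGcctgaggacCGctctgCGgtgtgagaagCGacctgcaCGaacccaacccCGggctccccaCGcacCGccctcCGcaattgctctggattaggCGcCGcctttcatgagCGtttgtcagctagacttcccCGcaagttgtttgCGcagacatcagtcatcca
Fgf4 (chr7:152047091-152047290, plus strand): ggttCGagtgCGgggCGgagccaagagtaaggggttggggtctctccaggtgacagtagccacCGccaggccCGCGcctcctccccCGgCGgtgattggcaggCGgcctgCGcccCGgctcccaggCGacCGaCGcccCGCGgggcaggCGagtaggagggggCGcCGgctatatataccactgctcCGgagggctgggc
Fgf15 (chr7:152082237-152082436, plus strand): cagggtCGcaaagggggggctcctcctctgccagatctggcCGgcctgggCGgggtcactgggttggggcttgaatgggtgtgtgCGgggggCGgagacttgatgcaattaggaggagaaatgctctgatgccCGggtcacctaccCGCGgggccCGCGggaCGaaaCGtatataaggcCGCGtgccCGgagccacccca
Fgf5 (chr5:98683003-98683202, plus strand): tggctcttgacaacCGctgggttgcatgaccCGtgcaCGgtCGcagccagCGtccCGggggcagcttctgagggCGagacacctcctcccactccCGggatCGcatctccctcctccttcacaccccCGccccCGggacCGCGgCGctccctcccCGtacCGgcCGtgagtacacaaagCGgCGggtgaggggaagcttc

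On mm9 the gene records of the plus strand were Fgf3 at chr7:152023988-152030341, Fgf4 at chr7:152047291-152051148 and Fgf15 at chr7:152082437-152086858, together with Fgf5 at chr5:98683203-98706049, Fgf9 at chr14:58689384-58731174 and Fgf10 at chr13:119458598-119580922. Those of the minus strand were Fgf8 at chr19:45811288-45817405, Fgf17 at chr14:71036012-71042075, Fgf18 at chr11:33017430-33047400 and Fgf20 at chr8:41364520-41393685. The protein-coding start of Fgf10 lies well inside its record, so its promoter peaks lie in an intron of the record. Each other ligand has a protein-coding start at the outer end of its record.

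The Fgf4 stretch held 20 CpG, that of Fgf5 held 19, and those of Fgf3 and Fgf15 held 15 each, against a median of 7 over 22220 promoters. The 6 letters TATAAA, found on either strand in 10.0% of promoters, were in the 200 bases of none of the 10 ligands. TATATA, which reads the same on both strands and was looked for after the sequences had been read, was in the stretches of Fgf4 and Fgf15 and in 4.15% of promoters. GGGCGG, on either strand, was in 8 of the 10 and in 38.6% of promoters, and CCAAT was in Fgf4 and Fgf8 and in 30.6%. These are matches of letters and not binding sites. Over the 1001 bp centred on the first start, the CpG number was 121 for Fgf18, 102 for Fgf8, 91 for Fgf20, 88 for Fgf4, 79 for Fgf5, 58 for Fgf15, 50 for Fgf3, 47 for Fgf10, 34 for Fgf9 and 33 for Fgf17. The median of all genes was 41 and that of genes with a promoter H3K27me3 peak in wild type NPC was 60. Fgf4 was thus denser in CpG than most genes with the mark. At the first start, Fgf9 and Fgf17 were below the median of all genes. At later starts the number was 70, 67 and 64 for Fgf9, 96 to 100 for Fgf8 and 88 for Fgf3. The later start of Fgf18 had 46 and that of Fgf20, where its histone peaks stood, had 45.

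The counts of marked ligands are given beside the share of all protein-coding genes, and since the ligands were a selection they do not speak for the family. In wild type ES, 8 of 10 had a promoter H3K27me3 peak, against 13.4% of all genes, and in PCGF5-depleted ES 7 of 10 did, against 12.9%. In wild type NPC 8 of 10 did, against 15.7%, and in PCGF5-depleted NPC 9 of 10, against 15.4%. For H2AK119ub1 the numbers were 5 of 10 in wild type ES, against 6.69%, 4 of 10 in depleted ES, against 5.96%, 6 of 10 in wild type NPC, against 4.98%, and 4 of 10 in depleted NPC, against 4.17%. Every ligand had a promoter H3K27me3 peak in at least 2 of the 4 lists except Fgf4, which had it in 1. Fgf10 and Fgf20 had no promoter H2AK119ub1 peak in any list. Over gene bodies the H3K27me3 numbers were 6, 7, 9 and 7 of 10 in wild type ES, depleted ES, wild type NPC and depleted NPC, against 15.5%, 14.4%, 15.4% and 15.3% of all genes. The H2AK119ub1 numbers over gene bodies were 5, 3, 5 and 4 of 10 in that order, against 9.86%, 8.78%, 5.23% and 5.25%. A gene without a peak may still carry the mark below the caller's threshold, and since the files give no read totals the depth behind each list is unknown.

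**Figure D1:**
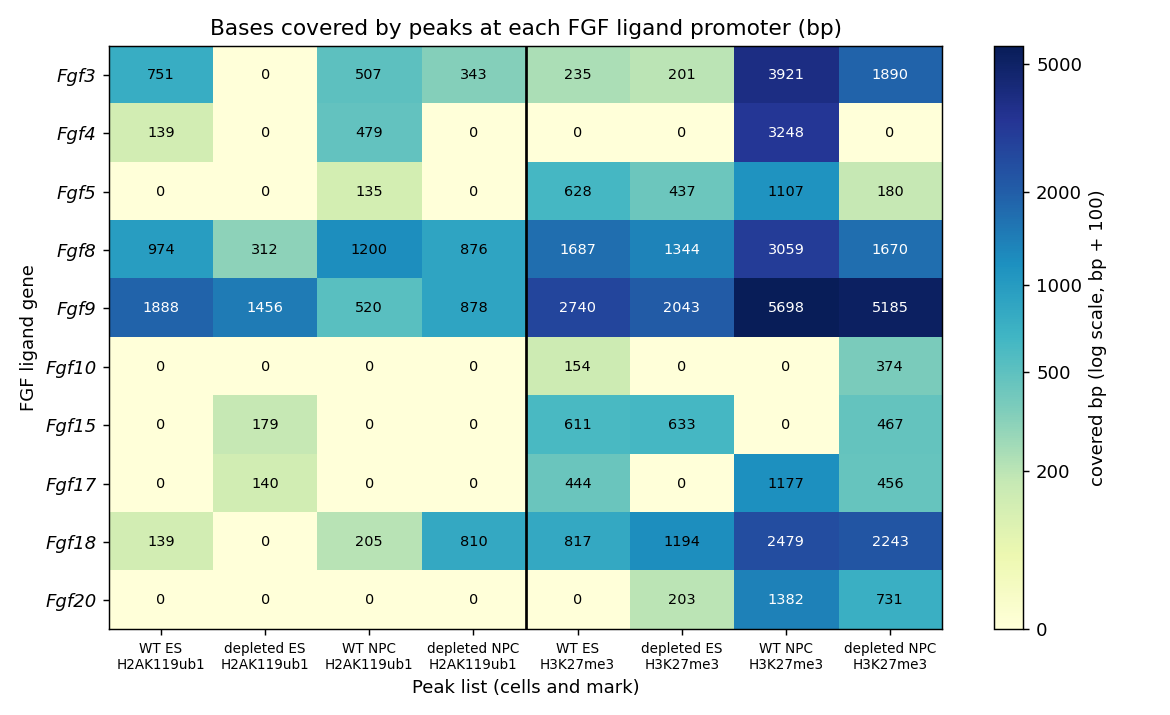
Bases covered by promoter peaks (bp, printed in each cell and shaded on a log scale) for 10 FGF ligand genes in 8 histone lists, with wild type (WT) and PCGF5-depleted cells side by side. Fgf8 and Fgf9 are filled in all 8 columns, Fgf4 has 3248 bp of H3K27me3 in wild type NPC and 0 in the other 3 H3K27me3 lists, and Fgf15 has 611, 633 and 467 bp in the 3 lists other than wild type NPC.

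The lists themselves differed in size. In wild type cells H3K27me3 peaks covered 4.31 Mb of the genome at the ES stage and 9.67 Mb at the NPC stage, and in depleted cells 3.84 and 8.18 Mb. H2AK119ub1 peaks covered 2.49 and 2.33 Mb in wild type and 2.09 and 1.12 Mb in depleted cells, so a change at the ligands was read against that over all promoters. The lists do not report expression. As a check of the cell labels, 4 of 4 neural precursor genes (Pax6, Nes, Zic1 and Pou3f2) had a promoter H3K27me3 peak in both NPC lists. In wild type ES 3 of them had one, and in depleted ES 4. Of 5 mesoderm and endoderm genes, 5, 4, 5 and 5 had one in wild type ES, depleted ES, wild type NPC and depleted NPC. Of 3 trophoblast and feeder genes, 2, 3, 3 and 3 did in that order. Of 5 pluripotency genes, 1 had a peak in each ES list, 3 in wild type NPC and 2 in depleted NPC. Klf4 had the mark in both NPC lists and in neither ES list, and Zfp42 in wild type NPC alone. H2AK119ub1 was called at 3, 4, 2 and 4 of the 4 neural genes in wild type ES, depleted ES, wild type NPC and depleted NPC. In that order the numbers were 3, 4, 4 and 4 for mesoderm and endoderm and 1, 1, 2 and 1 for trophoblast and feeder genes. For pluripotency genes they were 1, 0, 2 and 1. Between the NPC lists, Nes and Pou3f2 had it in depleted NPC alone, and Klf4 and Twist1 in wild type NPC alone. By presence of the marks, these genes separated the cell types only in part.

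Fgf4 had the largest difference in H3K27me3 cover between wild type and PCGF5-depleted NPC among the 10 ligands. In wild type NPC its promoter held 4 H3K27me3 peaks that together covered 3248 bp, more than in 86.3% of the 3480 genes with the mark. The widest, chr7:152046353-152048790 on mm9, was 2438 bp wide, spanned the start site and part of the coding sequence, had a fold enrichment of 6.69 over the caller's background and scored above 92.8% of the peaks in its list. In PCGF5-depleted NPC the promoter held 0 peaks, and the nearest H3K27me3 peak was 21212 bp from the start site. Neither ES list held one, with the nearest at 18943 bp in wild type and at 22652 bp in depleted ES. The H3K27me3 of Fgf4 was thus seen in wild type NPC alone. So it was for 570 genes, Fgf4 among them, out of the 3480 with the mark in wild type NPC, or 2.56% of all genes. Of the same 3480 genes, 832 had no peak in depleted NPC. By absence of the mark, depleted NPC matched both ES lists here, and whether this goes with their cell state was not tested.

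H2AK119ub1 at Fgf4 was called in both wild type lists and in neither depleted list. The promoter held 1 peak of 139 bp in wild type ES, at a fold of 4.30, and 0 in depleted ES. In wild type NPC it held 2 peaks that covered 479 bp, with a highest fold of 4.65, and in depleted NPC it held 0, with the nearest 21744 bp away. Both wild type NPC peaks lay inside the widest H3K27me3 peak. Of the 1108 genes with promoter H2AK119ub1 in wild type NPC, 65 had both marks there and neither in depleted NPC. These were 0.292% of all genes, and Fgf4 was the 1 ligand among them. Over all 8 histone lists the presence and absence at Fgf4 matched no other gene, but its wild type ES call was 1 low-scoring peak.

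Fgf15 had the opposite arrangement. H3K27me3 covered 611 bp in wild type ES with 2 peaks and 633 bp in depleted ES with 2 peaks, at highest folds of 4.83 and 5.45. Wild type NPC held 0 peaks, and the nearest was 32557 bp from the start. Depleted NPC held 2 peaks of 203 and 264 bp, the first 1359 bp before the start at a fold of 4.12 and the second over the start at a fold of 2.68. Both lay at nearly the same places as the 2 peaks of depleted ES, whose centres were 1416 bp before and 114 bp after the start. The depleted NPC peaks were weak, scoring above 39.1% and 3.03% of their list. The pattern was thus H3K27me3 in both ES lists and in depleted NPC but not in wild type NPC. It was seen at 207 genes, Fgf15 among them, out of 2976 with the mark in wild type ES, or 0.931% of all genes. At Fgf15, as at Fgf4, depleted NPC matched the ES lists in whether the mark was called, and the part of cell state in it was not tested. Such a match was not general among the ligands. In depleted cells, by the rule given below, H3K27me3 cover was higher in NPC than in ES at 5 of 9. These were Fgf3, Fgf9, Fgf10, Fgf17 and Fgf20, and 1, Fgf5, was lower. H2AK119ub1 was called at Fgf15 in depleted ES alone, as 1 peak of 179 bp. The start of Fgf15 lies within Gm17685, a non-coding RNA gene on the other strand, and the lists cannot tell the 2 apart.

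Fgf3 had a promoter H3K27me3 peak in all 4 lists, but the call in depleted ES was weak. In ES it was a single narrow promoter peak, 235 bp in wild type and 201 bp in depleted cells. The depleted ES peak had a fold of 3.91 and scored above 3.13% of its list. It did not overlap the wild type ES peak, and it was lost at the stricter q-value given with the alternatives below. In wild type NPC the H3K27me3 of Fgf3 was a single domain of 3921 bp, chr7:152023181-152027101, with a fold of 7.10. In depleted NPC 4 separate peaks of 334, 750, 578 and 228 bp lay within the limits of that domain and covered 1890 bp. The whole depleted NPC list held more and narrower H3K27me3 peaks, 14759 of median width 360 bp against 11371 of 453 bp in wild type NPC. H2AK119ub1 covered 751 bp of Fgf3 in wild type ES, 0 in depleted ES, 507 bp in wild type NPC and 343 bp in depleted NPC. The fold in depleted NPC was the highest of these, 7.25 against 5.99 in wild type ES and 3.61 in wild type NPC, so the peak there was narrower in sum but not weaker by the caller's measure.

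**Figure D2:**
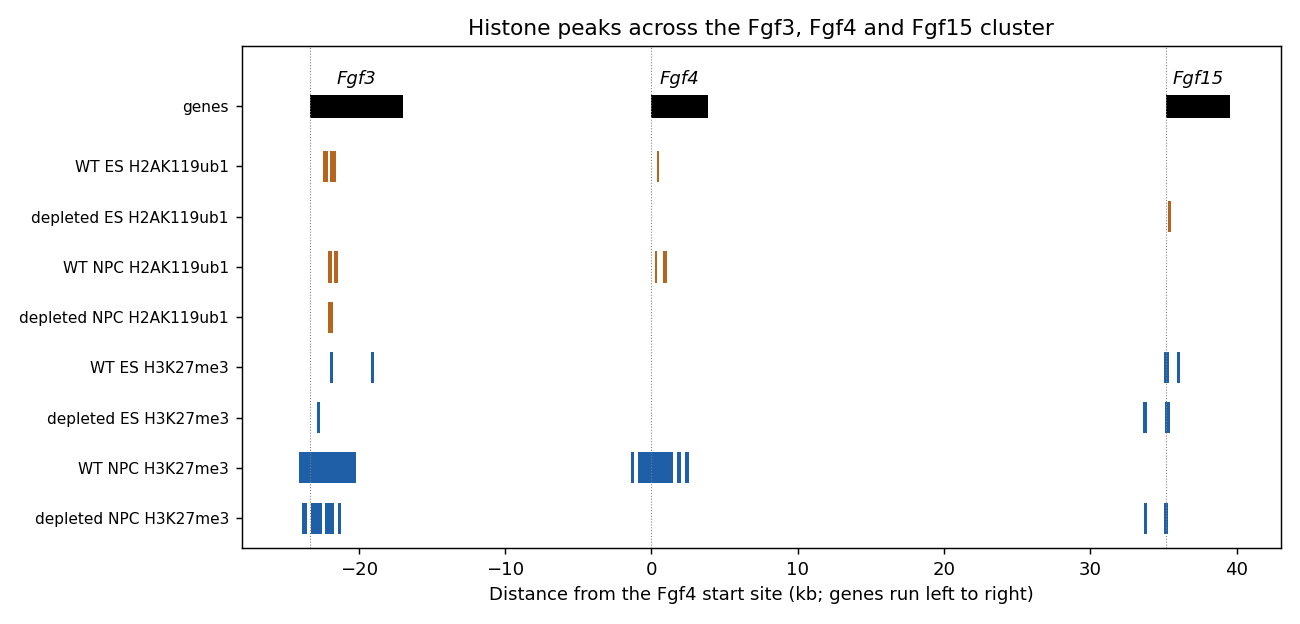
H2AK119ub1 peaks (brown) and H3K27me3 peaks (blue) across the Fgf3, Fgf4 and Fgf15 cluster in 8 lists, drawn to scale against the distance from the Fgf4 start site in kb, with the gene records in black. The H3K27me3 block at Fgf4 is in the wild type NPC row alone, and the Fgf15 peaks are in the other 3 H3K27me3 rows. At Fgf3, wild type NPC has a single domain and depleted NPC has 4 peaks.

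The cluster lies near the end of chromosome 7, a stretch in which the libraries differed in ways that were not particular to FGF genes. The last 8 Mb, chosen after the values had been seen, make up 0.294% of the assembly. They held 337 H2AK119ub1 peaks in wild type ES, 3.89% of that list, and 101, 31 and 23 in depleted ES, wild type NPC and depleted NPC, which are 1.41%, 0.539% and 0.598%. Of the 167 genes there, 24.6% had a promoter H2AK119ub1 peak in wild type ES against 6.69% of all genes. The H2AK119ub1 that Fgf3 and Fgf4 had in wild type and not in depleted ES stood among 26 genes of the stretch with that difference, and the part of the stretch in it was not tested. For H3K27me3 in NPC, 32 genes of the stretch had a peak in either list. Of these, 15 or 46.9% were lower in depleted NPC, by the rule given next, and 8, Fgf4 among them, had a peak in wild type alone. Fgf15 was the 1 gene of the 32 that was higher.

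For each mark, a gene was counted as lower or higher when its covered length fell or rose at least 2-fold or when it had a peak in 1 of the 2 lists alone. For H3K27me3 in NPC, 4 of 10 ligands were lower in depleted cells, against 34.1% of the 4266 genes with a peak in either list, and 2 were higher, against 23.7%. The share of ligands that were lower was thus close to that of all genes. The lower ones were Fgf3, Fgf4, Fgf5 and Fgf17, and the higher ones Fgf10 and Fgf15. The calls of Fgf5, Fgf10 and Fgf15 did not hold in the higher-scoring 50% of each list, where Fgf5 had 0 bp in wild type and 180 bp in depleted NPC and the depleted NPC peaks of Fgf10 and Fgf15 dropped out. The Fgf10 peak was also lost in a window of 1000 bp and at the start of the gene record. Summed over the 10 promoters, the covered length was 22071 bp in wild type and 13196 bp in depleted NPC. The log2 ratio was -0.74, while that over all promoters was -0.36. The largest falls were -3248 bp at Fgf4 and -2031 bp at Fgf3, both in the stretch of chromosome 7 described above. Over the genes of that stretch the cover was 72910 bp in wild type and 44604 bp in depleted NPC. In the 7 ligands with a peak in both lists the median log2 ratio was -0.92, and over the 2648 such genes it was -0.37.

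**Figure D3:**
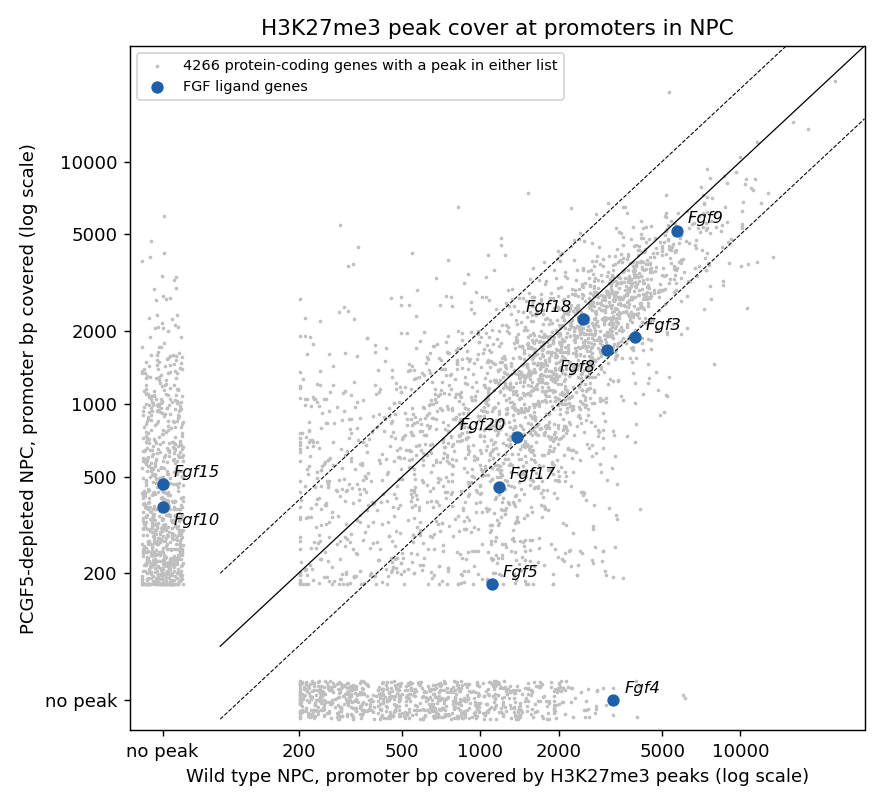
Promoter bases covered by H3K27me3 peaks in wild type NPC (horizontal) and PCGF5-depleted NPC (vertical), both on log axes in bp, for the 4266 genes with a peak in either list (grey) and the FGF ligands among them (blue). The solid line marks equal cover, the dashed lines a 2-fold difference, and genes without a peak are set on separate strips with random scatter; Fgf4 lies on the bottom strip, Fgf10 and Fgf15 on the left one, and Fgf9 and Fgf18 close to the solid line.

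Fgf5, the ligand of the epiblast-like state, carried H3K27me3 in all 4 lists, at 628 bp in wild type ES, 437 bp in depleted ES, 1107 bp in wild type NPC and 180 bp in depleted NPC. The places differed as well. In wild type ES 1 peak lay over the start, in depleted ES 1 peak lay in the intron with its centre 1741 bp downstream, and in wild type NPC 3 peaks ran from 88 bp before to 1609 bp after the start, by their centres. The single depleted NPC peak was centred 724 bp upstream, where wild type NPC had its only H2AK119ub1 peak of 135 bp. That depleted NPC peak, at a fold of 5.04, overlapped none of the 3 in wild type NPC, whose highest fold was 4.77.

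The subfamily of Fgf8, Fgf17 and Fgf18 was marked in different degrees. Fgf8, a signal of the isthmic organiser, had promoter peaks in all 8 histone lists, as 316 genes or 1.42% did. Its H3K27me3 covered 1687 bp in wild type ES, 1344 bp in depleted ES, 3059 bp in wild type NPC and 1670 bp in depleted NPC. The H2AK119ub1 cover was 974, 312, 1200 and 876 bp in the same order. In wild type NPC the promoter peak of highest H3K27me3 fold was 1918 bp wide at a fold of 8.30, and in depleted NPC it was 596 bp wide at a fold of 6.31. Just outside the window upstream, wild type NPC had a peak of 1569 bp at a fold of 8.80, centred 2727 bp from the start, and depleted NPC one of 929 bp at a fold of 8.43, centred 2521 bp from it, so the H3K27me3 peak of highest fold near Fgf8 was outside the window in both. Over the whole Fgf8 gene the H3K27me3 cover was close, 2728 bp in 3 peaks in wild type and 3014 bp in 5 peaks in depleted NPC.

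Fgf18 had the peak of highest H3K27me3 fold among the ligands, 10.7 in wild type NPC, in a domain of 2159 bp over both of its start sites. Its promoter cover was 817 bp in wild type ES, 1194 bp in depleted ES, 2479 bp in wild type NPC and 2243 bp in depleted NPC, where the highest fold was 6.30. H2AK119ub1 at Fgf18 went the other way in NPC. It covered 205 bp in wild type and 810 bp in depleted NPC, in each case as 1 peak that overlapped coding sequence near the start, and Fgf18 was the 1 ligand counted as higher for this mark in NPC. In ES its H2AK119ub1 was 139 bp in wild type and 0 in depleted cells. Fgf17 had less of both marks. Its H3K27me3 cover was 444 bp in wild type ES, 0 in depleted ES, 1177 bp in wild type NPC and 456 bp in depleted NPC, and its only H2AK119ub1 was a peak of 140 bp in the intron in depleted ES.

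Fgf9 and Fgf20 are related ligands with unlike marks. Fgf9 has 4 start sites spread over 5960 bp, and so a wider promoter window than the other ligands, and it was marked in all 8 histone lists. Its H3K27me3 cover was the highest of the ligands in each list, 2740 bp in wild type ES, 2043 bp in depleted ES, 5698 bp in wild type NPC and 5185 bp in depleted NPC. H2AK119ub1 covered 1888, 1456, 520 and 878 bp in the same order. In ES its H2AK119ub1 cover was thus smaller in depleted than in wild type cells, and in NPC it was larger. Both differences were less than 2-fold. At the start of the gene record alone, H3K27me3 covered 2524 bp in wild type and 3008 bp in depleted NPC, the opposite order to that over all start sites.

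Fgf20 has 2 annotated start sites 21378 bp apart, and its histone peaks stood at the inner start. The RefSeq record of Fgf20, 7788 bp long, has the length from the inner start to the end of the gene. H3K27me3 covered 0 in wild type ES, 203 bp in depleted ES, 1382 bp in wild type NPC and 731 bp in depleted NPC. Fgf10 was the least marked ligand. Its H3K27me3 was 1 peak of 154 bp in wild type ES and 1 peak of 374 bp in depleted NPC, with 0 in the other lists at the promoter, although wild type NPC held 1 peak of 307 bp elsewhere in its body. That peak had a higher fold, 5.47, than the depleted NPC peak, 4.24, so Fgf10 carried a peak in both NPC lists and differed in where it lay.

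**Figure D4:**
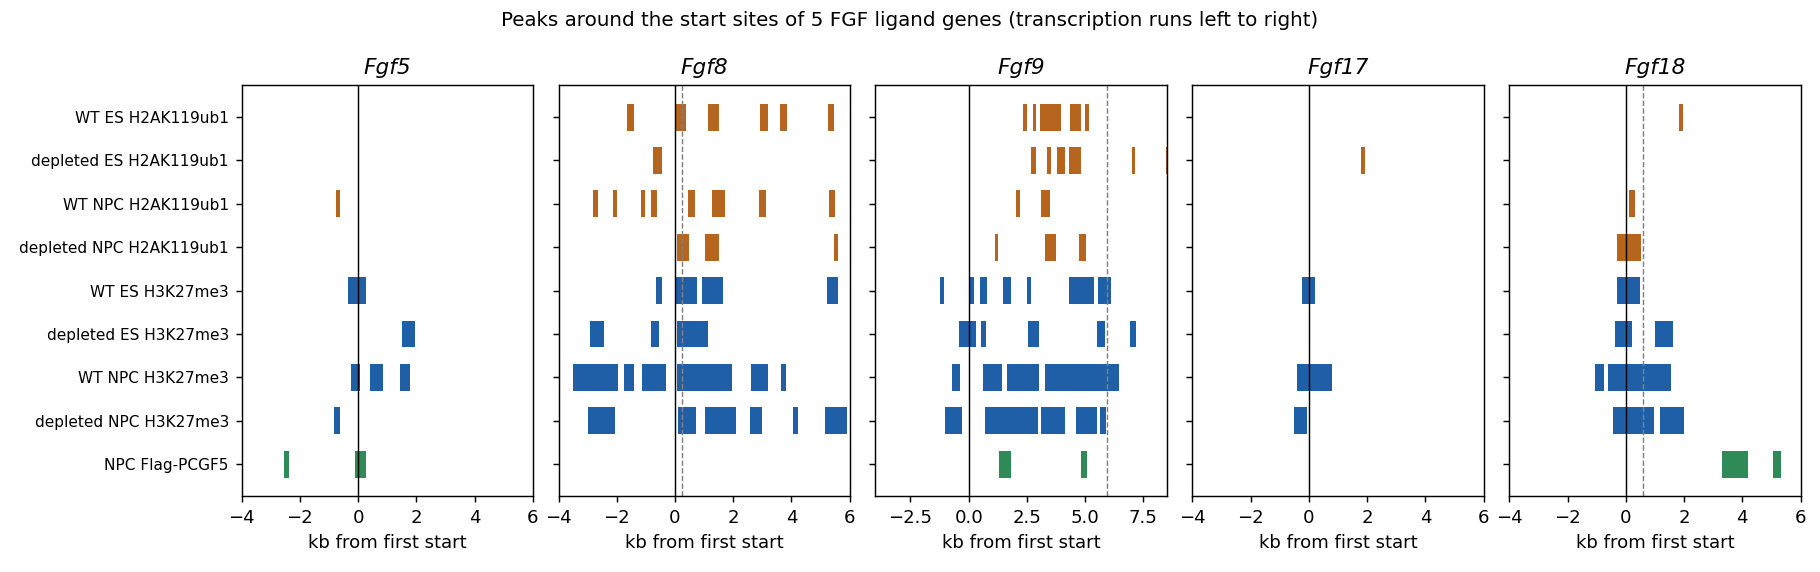
H2AK119ub1 (brown), H3K27me3 (blue) and Flag-PCGF5 in NPC (green) peaks around the start sites of Fgf5, Fgf8, Fgf9, Fgf17 and Fgf18, in kb from the first start site (solid line), with the last start site dashed where there are several. The wild type NPC H3K27me3 row is the fullest at Fgf9, and the depleted NPC peak at Fgf5 is upstream of the start. Those Flag-PCGF5 peaks of Fgf18 that fall in the range drawn are downstream of its promoter peaks.

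For H3K27me3 in ES, 2 of 9 ligands with a peak in either list were lower in depleted cells, against 34.5% of 3739 genes, and 1 was higher, against 27.7%. These were Fgf10 and Fgf17 against Fgf20, each with a peak in 1 list alone. The summed cover was 7316 bp in wild type and 6055 bp in depleted ES, a log2 ratio of -0.27 beside -0.18 over all promoters. For H2AK119ub1 in ES, 4 of 7 were lower, against 43.5% of 2086 genes, namely Fgf3, Fgf4, Fgf8 and Fgf18, and 2 were higher, against 33.6%, namely Fgf15 and Fgf17. The sum was 3891 bp in wild type and 2087 bp in depleted ES, a log2 ratio of -0.90 beside -0.14, with both Fgf3 and Fgf4 in the stretch of chromosome 7 described above. For H2AK119ub1 in NPC, 2 of 6 were lower, against 51.8% of 1474 genes, and 1 was higher, against 29.0%. The sum was 3046 bp in wild type and 2907 bp in depleted NPC, a log2 ratio of -0.07, while over all promoters it was -0.92. The direction at the ligands turned in 4 of 7 alternatives, most in the higher-scoring 50% of each list, where the sum was 1061 bp in wild type and 2329 bp in depleted NPC, a log2 ratio of 1.13.

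Between the stages, most ligands had more H3K27me3 cover in NPC. In wild type cells 6 of 10 were higher in NPC than in ES, against 60.3% of 4327 genes, and 2, Fgf10 and Fgf15, were lower, against 21.5%. The sum rose from 7316 bp to 22071 bp, a log2 ratio of 1.59 beside 1.43 over all promoters. In depleted cells 5 of 9 were higher, against 56.9% of 4116 genes, and 1, Fgf5, was lower, against 19.6%, with a log2 ratio of 1.12 beside 1.25. These counts were near the background, so the ligands moved with other marked genes. For H2AK119ub1 in wild type cells, 2 of 6 were higher in NPC, Fgf4 and Fgf5, against 35.7% of 2046 genes, and 1, Fgf9, was lower, against 50.7%, with a log2 ratio of the sums of -0.35 beside 0.25. That sum turned on Fgf9, which went from 1888 bp to 520 bp. In the 5 ligands with a peak in both lists the median log2 ratio was 0.30, beside 0.26 over 550 genes, and at the start of the gene record alone the ratio of the sums was 0.31. In depleted cells 3 of 6 were higher, Fgf3, Fgf8 and Fgf18, against 26.7% of 1710 genes, and 2 were lower, Fgf15 and Fgf17, against 54.2%, with a log2 ratio of the sums of 0.48 beside -0.53.

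The marks met more often in NPC. Of the promoter H2AK119ub1 peaks of the ligands, 6 of 12 were overlapped by an H3K27me3 peak of the same cells in wild type ES and 4 of 8 in depleted ES. In wild type NPC 12 of 13 were overlapped and in depleted NPC 7 of 7. The peaks share genes, and H3K27me3 peaks covered more of the genome in NPC, so these counts are a description.

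Flag-PCGF5 peaks were called at ligands in NPC alone. In ES 0 of 10 had a promoter peak, against 0.787% of all genes, and in NPC 3 of 10 did, Fgf5, Fgf9 and Fgf20, against 13.7%. Over gene bodies the numbers were 0, against 1.28%, and 4, against 18.8%. The ES list held 653 peaks and the NPC list 12013, and 95.1% of the 3172 genes with a promoter peak in either list were higher in NPC and 3.97% lower, so the difference at the ligands goes with that of the lists. The strongest peak of Fgf5, chr5:98683090-98683477, was 388 bp wide over the start site with a fold of 3.83, scored above 95.0% of its list and overlapped a wild type NPC H3K27me3 peak. A weaker peak of a fold of 2.27 lay 2470 bp upstream. The peaks of Fgf9, at folds of 3.16 and 2.09, also overlapped H3K27me3 in wild type NPC.

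Fgf20 had a Flag-PCGF5 peak of 678 bp at a fold of 4.00 over its outer start site, where no wild type NPC mark was called, and a weaker one of 173 bp at a fold of 2.24 near the inner start within H3K27me3. The outer start is 280 bp from the start site of Efha2, and the peak cannot be assigned to 1 of the 2 genes. Fgf18 had 5 Flag-PCGF5 peaks in its introns, at folds of 1.90 to 2.91, and none at its promoter, and none of the 5 overlapped a histone peak of wild type NPC. A sixth lay outside the gene at a fold of 1.91. Fgf3, Fgf4 and Fgf15 had no Flag-PCGF5 peak, but the NPC list held 1 peak and the ES list 0 in the last 8 Mb of chromosome 7, where 167 genes lie and 18.6% of them had promoter H3K27me3 in wild type NPC. The nearest NPC Flag-PCGF5 peak to Fgf4 was 7444990 bp away. The lack of a peak at these 3 ligands is therefore shared by the whole stretch. Fgf8, Fgf10 and Fgf17 lay outside it and also had no promoter or gene body peak.

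Of 30 other genes of the FGF pathway, 11 had a promoter H3K27me3 peak in each ES list, against 13.4% and 12.9% of all genes, and 13 in each NPC list, against 15.7% and 15.4%. H2AK119ub1 was called at 3, 7, 2 and 3 of them in wild type ES, depleted ES, wild type NPC and depleted NPC, against 6.69%, 5.96%, 4.98% and 4.17%. For H3K27me3 in NPC, 6 of 14 were lower in depleted cells, against 34.1%, and 1 was higher, against 23.7%. Among the other ligands, 3 of 8 were marked in both NPC lists, and Fgf16, of the Fgf9 subfamily, had the highest fold, with 2375 bp in wild type and 216 bp in depleted NPC. All 4 FGF homologous factors, which stay inside the cell and do not act through FGF receptors, were marked in both NPC lists, with Fgf12 at 2877 and 1790 bp.

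Of 5 receptor genes, 4 were marked in each NPC list, but not the same 4. Fgfr4 had 1389 bp of H3K27me3 in wild type NPC and 0 in depleted NPC, and Fgfr1, the main FGF receptor of ES and neural cells, had 0 in wild type NPC and 825 bp in depleted NPC. Fgfr3 had the highest fold of the receptors, with 2983 and 2798 bp. The co-receptor gene Kl had 2549 and 1698 bp. Of the FGF-induced transcription factor genes, Etv4 was the 1 of 3 with the mark, at 2961 bp in wild type and 777 bp in depleted NPC. None of the 8 feedback inhibitor genes analysed, Spry1, Spry2, Spry4, Spred1, Spred2, Spred3, Dusp6 and Il17rd, had promoter H3K27me3 in either NPC list, and Spry3 was not analysed here.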

How the data were processed

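ChIP-seq peak lists of 10 libraries were used, and the 6 input libraries were not analysed here. Histone chromatin was digested with micrococcal nuclease and lightly fixed, and Flag chromatin was fixed with EGS and formaldehyde and sonicated. Per the submitters' processing notes, the authors aligned reads to mm9 with Bowtie2 and ran the peak caller MACS2 2.1.0 on every library separately, without pooling. The deposited lists hold a score, a fold enrichment ratio over background, and −log10 p-values and q-values for each peak, as the authors' caller wrote them. Fold was compared within and between lists only as a description, since background and depth differ. The spike-in does not enter the lists. Depth per library is unknown. Covered length can therefore change with depth and background even where the mark does not.

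Peaks were assigned to genes of GENCODE M1 on NCBIM37 with Python 3.11.15 and pandas 2.3.3, and figures were drawn with matplotlib. Coordinates count from 1. A score percentile is the rank of a peak's −log10 p-value in its list, as a percentage, with tied peaks given their mean rank. A peak said to score above a percentage of its list is described in this sense. The counting was tested on simulated data, with 0 of 400 genes counted wrongly, and checked against bedtools, with 0 of 10 lists differing. All 10 ligands are named. Of the pathway genes, named are those with H3K27me3 in 1 NPC list alone and, in each group, the one with the highest fold in wild type NPC. Pathway and marker lists and the members were chosen with earlier results of these data known. Of the listed genes, 30 of 31 pathway genes and 4 of 5 neural genes matched the annotation. RefSeq gene lengths are from GRCm38 and were used for lengths only. The alternatives were windows of 1000 and 5000 bp, any base of a peak in the window, the higher-scoring 50% of peaks, a q-value of 0.05 or lower, equal numbers of top-scoring peaks, the gene record's start alone and merging of peaks within 1000 bp. Per-sample columns not used numbered 0.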

Additional observations from a re-analysis of the deposited data

Results flagged for a closer look

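With 1 library per group, the results here stand out because the difference between depleted and wild type cells had opposite signs in ES and NPC, and this opposition was not tested. The number of ligands with a promoter H3K27me3 peak differed by -1 in ES but by 1 in NPC. The change in H2AK119ub1 cover at Fgf9 was -432 bp in ES but 358 bp in NPC, and at Fgf18 it was -139 bp in ES but 605 bp in NPC. The change in H3K27me3 cover at Fgf10 was -154 bp in ES but 374 bp in NPC, at Fgf18 it was 377 bp in ES but -236 bp in NPC, and at Fgf20 it was 203 bp in ES but -651 bp in NPC. The ES values of Fgf18 for H2AK119ub1, of Fgf10 and of Fgf20 each rest on 1 peak that was called in 1 of the 2 lists. By cover, the differences of Fgf9 for H2AK119ub1, of Fgf18 for H3K27me3 and of Fgf20 in NPC were all less than 2-fold.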

How the results depend on the processing

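No paired analysis was possible because each group had 1 library, and none could be left out. Of 70 numbers of ligands with a promoter peak, 60 stayed within 1.5 times the value given. With the higher-scoring 50% of each list the H2AK119ub1 numbers were 3, 1 and 3 in wild type ES, depleted ES and wild type NPC, and the H3K27me3 number in depleted NPC was 5. With equal numbers of top-scoring peaks, H2AK119ub1 gave 3 and 1 in wild type and depleted ES, and H3K27me3 gave 5, 4, 5 and 4 in wild type ES, depleted ES, wild type NPC and depleted NPC. The 10 gene body numbers moved by less. All H3K27me3 log2 ratios of summed cover kept their sign.

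The H2AK119ub1 ratios did not. Depleted against wild type NPC gave 0.22 in a window of 1000 bp, 1.13 in the higher-scoring 50%, 0.01 at a q-value of 0.05 or lower and 0.22 with equal numbers of peaks, against -0.07. In ES it was -0.19 at 1000 bp and -1.78 at the gene record's start. NPC against ES was -1.25 in the higher-scoring 50% and 0.31 at the record's start in wild type, and 1.32, 1.78 and 1.64 in the higher-scoring 50%, at the record's start and with equal numbers in depleted cells. The cause was not tested.

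For H3K27me3 in NPC, depleted minus wild type, Fgf5 became 180 bp in the higher-scoring 50%, and Fgf9 became 330 bp at 1000 bp and 484 bp at the record's start. Fgf4 stayed within 1.5 times of -3248 bp in all 7 alternatives. The peaks of Fgf15 in depleted NPC were both outside the higher-scoring 50%, and the peak of Fgf10 was lost there, at 1000 bp and at the record's start. Merging peaks within 1000 bp cut the number of promoter peaks by more than 1.5 times in 6 of 10 lists.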
